A study of Bos taurus with 16 samples.

Results

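IGFBP1 encodes insulin-like growth factor binding protein 1, a protein that hepatocytes secrete and that binds insulin-like growth factor I (IGF-I) in the blood. Its transcript was measured in the liver of 16 beef steers, as 1 of 26773 transcript clusters on the array, and it was the single cluster that the array annotation paired with the symbol IGFBP1 alone. The gene was chosen by its measured values, so its levels and its correlations with other genes are given here as a description, without a test. Genes that rose or fell with IGFBP1 from steer to steer are described next to it.

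The steers were crossbred, 11 months old at the start, and were fed a high-concentrate finishing diet with wet distillers grains ad libitum for 78 days. Steers far from the joint mean of gain and feed intake over the trial were taken into 4 groups of 4. High gain steers formed the high gain-high intake and the high gain-low intake group, and low gain steers the low gain-high intake and the low gain-low intake group. All groups had the same feed and no treatment, so a group is a measured phenotype. Breed was weighed when steers were chosen, but breed make-up still differed between the groups. Hereford had its largest share among low gain-low intake steers, and Brown Swiss was listed for them alone. Brahman and Santa Gertrudis were listed only for low gain-high intake steers. The part of breed in the group differences of IGFBP1 was not tested. Harvest was spread over several days, with 1 steer of each group on each day, and neither the day nor the time since the last meal of a steer is given in the sources used here. Total RNA from the right lobe of the liver of each steer was put on 1 Affymetrix bovine gene array. RNA integrity varied between the samples, and the study gives it as a range and not by steer. Its part in the values and correlations below was not tested. All levels below are log2 values as the authors normalized them, so that a difference of 1 is a 2-fold difference.

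In the liver, transcription of IGFBP1 is repressed by insulin, which keeps the transcription factor FOXO1 out of the nucleus. It is raised by fasting, glucagon acting through cyclic AMP, glucocorticoids, amino acid shortage and low oxygen. IGF-I in blood is mostly held in a complex of IGFBP3 and the acid-labile subunit (IGFALS), while IGFBP1 carries a small part of it that changes from hour to hour. This is background from other species, mainly human, rat and mouse, and was not measured here.

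The 16 arrays fell into 2 sets by the order of their columns. The first 8 arrays, which hold the 8 lowest animal numbers, had array medians of 7.41 to 7.47, and the last 8 had medians of 7.16 to 7.28. No label names these sets. The first 8 held 1 steer of the high gain-high intake group, 2 of the high gain-low intake group, 2 of the low gain-high intake group and 3 of the low gain-low intake group, and the last 8 held 3, 2, 2 and 1. Both the high gain-high intake group and the low gain-low intake group are therefore spread unevenly between the sets. Correlations were computed after each gene's mean in the first 8 and in the last 8 arrays had been subtracted, and such values are called set-centred. IGFBP1 itself had means of 13.97 (SD 2.01) in the first 8 and 13.62 (SD 1.61) in the last 8 arrays, which hold the groups unevenly. Its means in the first and the last 8 arrays were 13.77 and 13.37 in high gain-high intake and 16.53 and 14.43 in high gain-low intake steers. They were 14.03 and 14.73 in low gain-high intake and 12.29 and 10.51 in low gain-low intake steers.

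IGFBP1 had its highest mean in high gain-low intake steers, the next in low gain-high intake steers, then in high gain-high intake steers, and its lowest in low gain-low intake steers. It measured 13.77, 14.30, 12.89 and 12.93 in the high gain-high intake steers, 17.39, 15.68, 13.18 and 15.68 in the high gain-low intake steers, 12.52, 15.55, 14.80 and 14.67 in the low gain-high intake steers, and 11.74, 12.69, 12.44 and 10.51 in the low gain-low intake steers. All 4 low gain-low intake steers lay below all steers of the high gain groups, while 1 low gain-high intake steer, at 12.52, lay within the range of the low gain-low intake steers. The mean was 13.47 ± 0.69 in high gain-high intake, 15.48 ± 1.73 in high gain-low intake, 14.38 ± 1.31 in low gain-high intake and 11.84 ± 0.98 in low gain-low intake steers (SD, n = 4 each). In this and every later list of values by steer, the values stand in order of animal number within a group, so the first 1, 2, 2 and 3 values of the 4 groups come from the first 8 arrays.

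**Figure D1:**
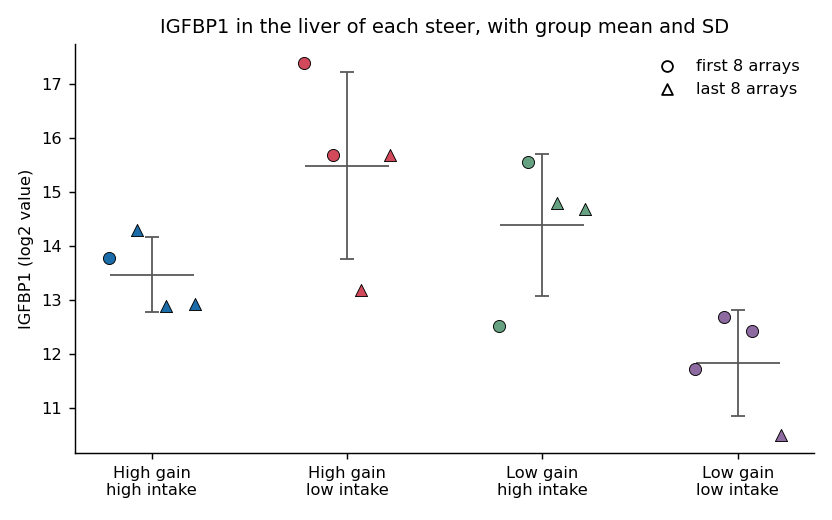
IGFBP1 in the liver of each of the 16 steers (log2 value, vertical axis) by group (horizontal axis). Points are steers, with circles for the first 8 and triangles for the last 8 arrays, and the lines give the group mean and SD (n = 4). The low gain-low intake steers, between 10.51 and 12.69, lay below all 4 high gain-high intake and all 4 high gain-low intake steers.

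At low intake, high gain steers had 3.64 more IGFBP1 on the log2 scale than low gain steers, which is 12.5-fold, and the groups did not overlap (16 of 16 pairs of steers). The difference was 4.25 within the first 8 and 3.92 within the last 8 arrays. The study's quantitative PCR of IGFBP1 in these 2 groups also gave a higher mean at high gain, but with a smaller fold difference. The P value of that assay was not below the limit the study used for it. At high intake, high gain steers were lower than low gain steers by a mean difference of -0.91, and the high gain steer was the higher one in 4 of 16 pairs. At high gain, the high intake group differed from the low intake group by -2.01, with the high intake steer higher in 2 of 16 pairs. At low gain, the high intake group was higher by 2.54, in 15 of 16 pairs.

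Along the order of the group means, the high gain-low intake group exceeded the low gain-high intake group by 1.10, less than either group's SD of 1.73 and 1.31. Within the first 8 arrays this difference was 2.50 and within the last 8 it was -0.31. The high gain-high intake group was below the low gain-high intake group by a difference of -0.91, within the SD of 1.31 of the low gain-high intake group. The high gain-high intake group exceeded the low gain-low intake group by 1.63, with no overlap. Averaged over intake, the gain effect (high minus low gain) was 1.36 with a standard error of 0.55. Averaged over gain, high intake minus low intake gave an intake effect of 0.27 with a standard error of 0.55. The intake effect was -0.51 within the first 8 and 1.58 within the last 8 arrays, and it was -0.12 without 1 high gain-low intake steer, 20133337. The interaction, which is the gain difference at high intake minus that at low intake, was -4.55 with a standard error of 1.09, and -4.51 and -5.28 within the first and the last 8 arrays.

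IGFBP1 varied more from steer to steer than most transcripts of these livers. The SD around the array set means was 1.82, against a median of 0.295 over all transcript clusters, and 57 of 26773 clusters had a larger one. Among clusters with 1 gene symbol it ranked 23. This spread holds the differences between groups for which the gene was chosen. Around the group means its SD was 1.24, 365 clusters had a larger one, and it ranked 93 among clusters with 1 symbol. The highest and the lowest steer, high gain-low intake steer 20133045 and low gain-low intake steer 20133403, differed by 6.88. Its mean of 13.8 was above that of 95.98% of clusters. It lay above 88% of the clusters of its array in the lowest steer and above 98.92% in the highest. In whole liver, fewer cells that express a gene and less of its RNA per cell cannot be told apart.

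Across the 16 set-centred values, 502 of the other 26772 transcript clusters had a Pearson correlation (r) with IGFBP1 of at least 0.6 (1.88%), and 176 had one of -0.6 or less (0.657%). These are called rising and falling. The highest r was 0.883 and the lowest -0.866. Just inside the limits lay KCTD19 at 0.6001 and FUCA1 at -0.6002, and just outside lay CRIP3, which rounds to 0.6, and ARHGAP42 at -0.5997. A total of 678 partners was ordinary for these arrays. Counted in the same way, the middle transcript cluster had 587 partners, the central 50% had 437 to 867, and 60.6% of clusters had fewer than IGFBP1. The balance leaned to the rising side, with 502 against a median of 319 over all clusters, and 176 falling against a median of 265.

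CTSL, which encodes the lysosomal protease cathepsin L, was one of the genes most like IGFBP1 (r = 0.85). It measured 6.30, 6.37, 6.63 and 6.05 in the high gain-high intake steers, 7.29, 6.996, 6.14 and 6.77 in the high gain-low intake steers, 6.39, 6.69, 6.54 and 6.54 in the low gain-high intake steers, and 6.49, 6.26, 6.51 and 5.68 in the low gain-low intake steers. The highest and the lowest steer for CTSL were also those for IGFBP1, and r was 0.86 in each array set, 0.68 without these 2 steers and 0.72 with group means removed as well. CLRN2, which encodes clarin 2, a membrane protein known from hair cells of the inner ear in mouse and human, had the highest r of all clusters with a symbol (0.88), although its level was low. CLRN2 measured 5.83, 5.25, 5.22 and 5.04 in the high gain-high intake steers, 6.38, 6.11, 5.44 and 5.66 in the high gain-low intake steers, 5.85, 6.02, 5.65 and 5.62 in the low gain-high intake steers, and 5.57, 5.94, 5.78 and 4.91 in the low gain-low intake steers. Its values overlapped between all groups, and 11.3% of clusters had a lower mean.

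The other 13 of the 15 gene symbols with the highest r lay between 0.78 and 0.84. They were the olfactory receptor genes OR2F1D, OR6Z9 and OR4C160, the homeobox gene MEIS3, the RNA polymerase II subunit POLR2I, SH3TC1, TDRP, the cholesterol 25-hydroxylase gene CH25H, the mitochondrial outer membrane protein FUNDC2, and LOC528568, LOC100298890, LOC513329 and LOC100295281. FUNDC2 was the 1 gene of the 15 in the highest 20% of means, at 11.49 ± 0.41 in high gain-high intake, 12.05 ± 0.28 in high gain-low intake, 11.84 ± 0.32 in low gain-high intake and 11.57 ± 0.65 in low gain-low intake steers (SD, n = 4 each), which overlap. Of the 15, 12 had a mean below that of the median cluster, and 7 were in the lowest 20% of all means. All 15 stayed at an r of at least 0.6 after quantile normalization of the arrays and without each steer in turn, and 11 did so with group means removed as well. With no array set means removed, r was 0.31 for OR4C160, 0.45 for TDRP, 0.48 for CH25H, 0.49 for POLR2I and 0.56 for MEIS3. In that setting CLRN2 was at 0.65, and the rest of the 15 also stayed at 0.6 or more.

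The liver gene with the steepest positive slope after a microRNA gene was RBP5, which encodes a retinol-binding protein. RBP5 measured 12.40, 13.15, 10.82 and 12.79 in the high gain-high intake steers, 13.45, 12.61, 11.13 and 12.39 in the high gain-low intake steers, 12.27, 13.23, 11.15 and 12.97 in the low gain-high intake steers, and 12.65, 12.22, 11.18 and 10.53 in the low gain-low intake steers. It rose by 0.30 for each unit of IGFBP1 on the log2 scale (r = 0.61), and values near 11 and near 13 occurred in all groups but the last, whose highest was 12.65. DIO1, the type 1 deiodinase that turns thyroxine into the active hormone in liver, rose by 0.27 for each unit (r = 0.62). DIO1 measured 16.43, 15.85, 16.16 and 16.49 in the high gain-high intake steers, 17.02, 16.92, 15.76 and 16.57 in the high gain-low intake steers, 14.79, 16.20, 17.23 and 14.82 in the low gain-high intake steers, and 15.26, 15.39, 16.22 and 15.28 in the low gain-low intake steers. The r of DIO1 was 0.81 in the first 8 arrays and 0.37 in the last 8, where the 2 low gain-high intake steers of like IGFBP1 were the highest and the lowest for DIO1.

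The others with a steep positive slope were MIR1225 and MIR544B-2, both microRNA genes, LOC785803, LOC788284, LOC513329 and ANGPT2, which encodes the vessel ligand angiopoietin 2. ANGPT2 had an r of 0.63, with group means of 6.76 in high gain-high intake, 7.54 in high gain-low intake, 6.47 in low gain-high intake and 6.27 in low gain-low intake steers. Its r was 0.29 once group means were removed too. Of the 8 genes chosen by slope, 1 kept an r of at least 0.6 without each steer in turn. The microRNA clusters measure total RNA at these loci, and mature microRNAs were not told apart from their precursors.

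RMI1, which encodes a subunit of the BLM helicase complex that resolves DNA crossovers, was the gene most opposite to IGFBP1 (r = -0.87). It measured 7.99, 7.82, 8.12 and 8.10 in the high gain-high intake steers, 7.71, 7.86, 8.06 and 7.58 in the high gain-low intake steers, 8.56, 8.16, 7.94 and 7.56 in the low gain-high intake steers, and 8.24, 8.46, 8.41 and 8.43 in the low gain-low intake steers. The low gain-low intake steers, lowest in IGFBP1, lay above all steers of both high gain groups. The r of RMI1 was -0.83 and -0.92 within the first and last 8 arrays, -0.77 with group means removed as well, and -0.90 to -0.83 without each steer in turn.

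The next genes by negative r were TPSB2, a mast cell tryptase, GALNT14, which starts mucin-type O-glycosylation, LOC783466, the vitamin K epoxide reductase VKORC1L1, the matrix protein gene MATN4, the O-glucosyltransferase POGLUT2, TMEM168, the messenger RNA cleavage factor CPSF6, the vesicle adaptor AP4S1, the nucleotide sugar transporter SLC35D2, the histone chaperone ASF1B, MIR2353, the calcium-dependent kinase CAMK4, and ARL6IP1, which shapes the endoplasmic reticulum. Their r lay between -0.82 and -0.71. TPSB2 had 2 clusters, of which the one with the more extreme r is given, and only 3.48% of all clusters had a lower mean. VKORC1L1 was 12.94 ± 0.12 in high gain-high intake, 12.42 ± 0.33 in high gain-low intake, 12.85 ± 0.12 in low gain-high intake and 12.94 ± 0.19 in low gain-low intake steers (SD, n = 4 each). Of these 15 genes, RMI1 included, 6 had a mean below that of the median cluster, against 12 of the 15 rising genes. With group means removed as well, 7 of the 15 were still at -0.6 or less. With no array set means removed, r was -0.34 for POGLUT2, -0.40 for ARL6IP1 and -0.48 for AP4S1 and LOC783466. It was -0.57 for CPSF6 and -0.59 for ASF1B, and the rest of the 15 stayed at -0.6 or less.

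PON3, which encodes the liver paraoxonase 3 of high-density lipoproteins, fell most steeply, by 0.30 for each unit of IGFBP1 (r = -0.64). PON3 measured 16.08, 15.14, 14.77 and 16.29 in the high gain-high intake steers, 15.09, 15.19, 14.77 and 13.61 in the high gain-low intake steers, 16.39, 16.01, 15.19 and 13.05 in the low gain-high intake steers, and 16.01, 15.78, 16.05 and 16.28 in the low gain-low intake steers. The low gain-low intake steers lay close together and above all 4 high gain-low intake steers. TFRC, the transferrin receptor for iron uptake, fell by 0.20 for each unit (r = -0.65). TFRC measured 11.73, 11.88, 11.50 and 12.92 in the high gain-high intake steers, 11.83, 10.82, 12.08 and 11.19 in the high gain-low intake steers, 11.90, 11.82, 11.75 and 11.95 in the low gain-high intake steers, and 12.04, 12.50, 12.23 and 13.05 in the low gain-low intake steers. Here the low gain-high intake steers were nearly level, with an SD of 0.089, although their IGFBP1 spread over 12.52 to 15.55. Within groups and array sets the r of TFRC was -0.21.

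The other genes with a steep negative slope were ACOT6, an acyl-CoA thioesterase, MIR2353 and MIR29A, the endoplasmic reticulum lectin MLEC, PRG4, which encodes lubricin, and ACTR2, a subunit of the actin-branching ARP2/3 complex. Of the 8 chosen by negative slope, 6 were in the highest 20% of all means, and none was in the lowest 20%. GC, which encodes the vitamin D-binding protein, was noticed after its values were seen. It had an r of -0.69 as deposited and 0.09 after quantile normalization, and it lay at or near the highest value of the array in the first 8, at 20.84 to 21.47 in the first 8 and 21.97 to 22.38 in the last 8 arrays.

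**Figure D2:**
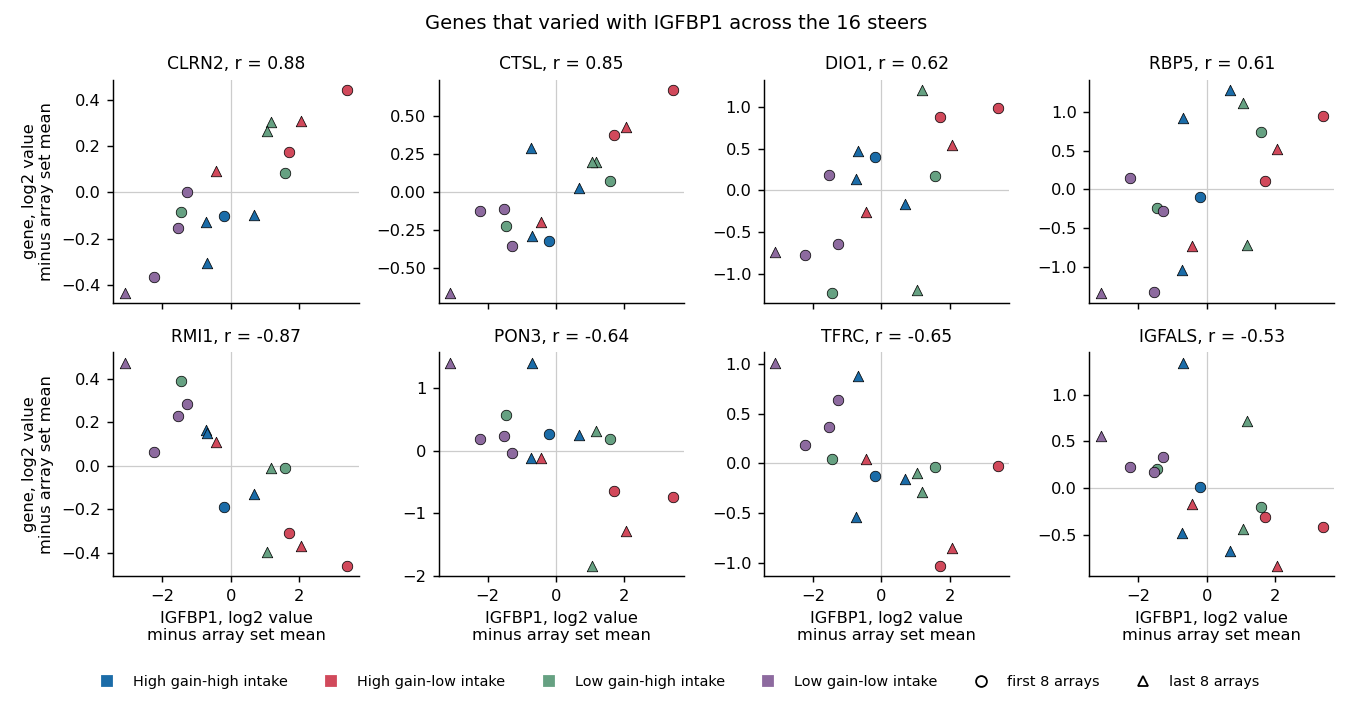
Set-centred log2 values of 8 genes (vertical axes) against set-centred IGFBP1 (horizontal axes) in the 16 steers. Colours give the group and shapes the array set, and r is printed over each panel. CTSL and CLRN2 follow IGFBP1 closely in both sets, but they were chosen for their r over all 16 arrays. The 2 low gain-high intake steers of the last 8 arrays are far apart in DIO1.

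The sign of r went with how bright a transcript was on the array. In the lowest 20% of mean levels (3.67 to 6.05), the median r with IGFBP1 was 0.148, with 153 clusters rising and 22 falling. In the highest 20% (9.59 to 21.8), it was -0.04, with 23 rising and 57 falling. Over all clusters the median r was 0.06, and 58.1% were above 0. Moreover, IGFBP1 moved with the lower part of each array, since its r was 0.66 with the 25th percentile of the array, 0.54 with the array median and -0.04 with the 75th percentile, all set-centred. The last value joins opposite signs. With the 75th percentile, r was -0.92 in the first 8 and 0.45 in the last 8 arrays, and -0.44 without the 2 farthest steers. Without these 2 steers, r was 0.54 with the 25th percentile and 0.24 with the array median. The part of these array measures in the correlations was not tested beyond a change of scaling. After quantile normalization the median r of the lowest 20% was 0.03, with 71 rising and 58 falling, while that of the highest 20% was -0.04, with 28 rising and 67 falling.

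**Figure D3:**
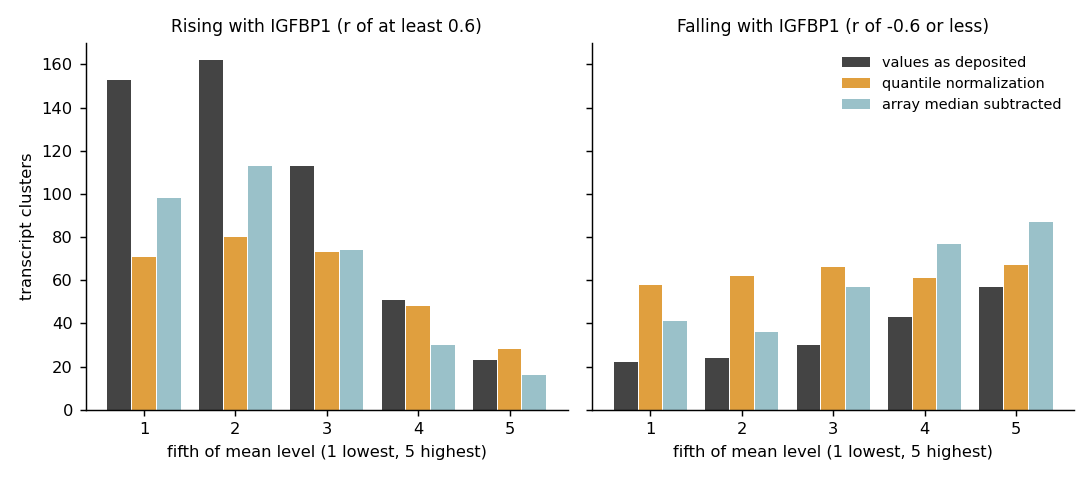
Number of transcript clusters that rose with IGFBP1 (left) or fell with it (right), vertical axis, by 5 classes of mean level from lowest to highest, horizontal axis. Bars give the values as deposited, after quantile normalization and after subtraction of array medians. The excess of rising clusters at low levels, 153 against 22 falling, shrank to 71 against 58 under quantile normalization.

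Of the 502 rising clusters, 279 stayed at an r of at least 0.6 after quantile normalization, and of the 176 falling ones 141 did at -0.6 or less. With both group and array set means removed, 163 and 53 did. Without the 2 steers farthest from the median of IGFBP1, 179 and 74 did. In both array sets taken alone, 201 and 65 were past the limits. All 15 top rising and all 15 top falling genes had the same sign of r in both sets, but they were chosen on all 16 arrays.

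Genes were therefore also chosen in 1 set and read in the other. Of the 100 clusters with the most positive r in the first 8 arrays, 63 had a positive r in the last 8, where 61.1% of all clusters did, and their median r there was 0.197 against 0.116 for all. Of the 100 with the most negative r, 48 were negative in the last 8 arrays, where 38.9% of all were, with a median r of 0.02. Chosen in the last 8 arrays, 68 of the most positive were positive in the first 8 (51.7% of all), with a median r of 0.187, and 57 of the most negative were negative (48.3% of all), with a median r of -0.05. In each of the 4 readings the share exceeded that of all clusters, by 1.9 to 16.3 percentage points. In the same order, 13, 2, 12 and 6 of the 100 were past 0.6 in the other set in the direction they were chosen for, where 8.69%, 3.94%, 7.86% and 6% of all clusters were. In these deposited values the falling ones were thus no more frequent than among all clusters, and most clusters that followed IGFBP1 closely in 1 set did not do so in the other.

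**Figure D4:**
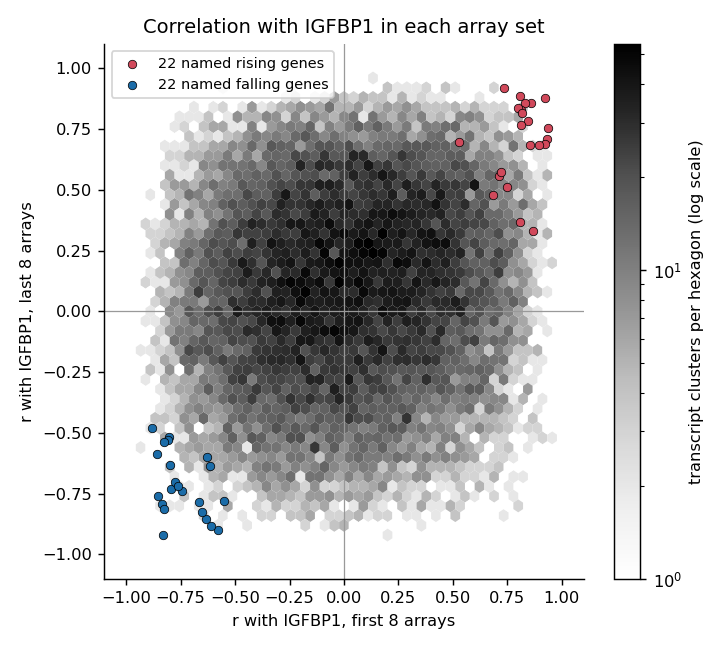
Correlation of each transcript cluster with IGFBP1 in the first 8 arrays (horizontal axis) and in the last 8 (vertical axis). Shading counts clusters per hexagon on a log scale, and points are the 22 rising and 22 falling genes named by r or slope. These lie in opposite corners because they were chosen on both sets together, while clusters with a high r in 1 set alone spread over all values in the other.

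Pathways known to set IGFBP1 were read together with other processes from 17 gene lists with 267 measured genes. The others include acute phase, cell division and liver zonation genes. Of these genes 3 rose with IGFBP1 (1.12%, against 1.88% of all clusters) and none fell (0% against 0.657%). For the counts of positive r by list below, the share over all clusters was 58.1%. In limma, none of the 267 differed by gain, by intake or by their interaction at an adjusted p below 0.05, as for all transcript clusters (0% called in each comparison and over the 4 groups). At an unadjusted p of 0.05 or less, 11 of the 267 differed by gain (4.12%, against 3.48% of all clusters), 3 by intake (1.12% against 2.86%) and 9 by the interaction (3.37% against 2.81%).

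In the IGF axis, 4 of 15 genes had a positive r and the median was -0.16. IGFALS, the acid-labile subunit that keeps IGF-I in its long-lived complex, had the most negative r of this list (-0.53). IGFALS measured 12.53, 11.02, 11.21 and 13.04 in the high gain-high intake steers, 12.10, 12.20, 11.52 and 10.86 in the high gain-low intake steers, 12.73, 12.31, 12.41 and 11.25 in the low gain-high intake steers, and 12.74, 12.86, 12.69 and 12.25 in the low gain-low intake steers. All low gain-low intake steers lay above all high gain-low intake steers, and r was -0.96 in the first 8 but -0.46 in the last 8 arrays. IGF1 had an r of -0.32, and measured 17.06, 16.04, 16.43 and 15.97 in the high gain-high intake steers, 16.51, 16.66, 16.54 and 14.18 in the high gain-low intake steers, 16.45, 16.37, 17.34 and 15.58 in the low gain-high intake steers, and 17.42, 17.23, 16.59 and 15.82 in the low gain-low intake steers, with overlap of all groups. IGFBP3, the main carrier of IGF-I and the next protein-coding gene on 1 side of IGFBP1 in the RefSeq gene order, had an r of -0.31. On the other side CCDC201 had no value here, and ADCY1 beyond it had an r of 0.48. GHR, the growth hormone receptor, had an r of -0.21.

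STC2, which encodes stanniocalcin 2, an inhibitor of the proteases that cut IGF-binding proteins, rose with IGFBP1 (r = 0.62). STC2 measured 7.06, 7.12, 7.05 and 6.48 in the high gain-high intake steers, 7.08, 6.86, 7.26 and 7.25 in the high gain-low intake steers, 6.83, 7.27, 7.39 and 7.23 in the low gain-high intake steers, and 6.59, 6.58, 6.81 and 6.94 in the low gain-low intake steers. Its r was 0.56 after quantile normalization, 0.57 with array medians subtracted and 0.35 with group means removed as well. The 1 high gain-high intake steer at 6.48 stood below its group, whose other steers were at 7.05 to 7.12.

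Insulin signaling showed a mixed picture. Of 21 genes of the insulin receptor pathway, 14 had a positive r (median 0.12), where 58.1% of all clusters did. IRS2, a docking protein of the insulin receptor whose gene FOXO1 activates, led them (r = 0.57). IRS2 measured 7.34, 7.52, 7.52 and 7.59 in the high gain-high intake steers, 7.38, 8.21, 7.56 and 8.60 in the high gain-low intake steers, 7.03, 7.23, 7.78 and 7.70 in the low gain-high intake steers, and 7.25, 6.91, 7.59 and 7.23 in the low gain-low intake steers. The values above 8 were both in high gain-low intake steers, and the r of IRS2 was 0.40 in the first 8 and 0.79 in the last 8 arrays. INSR, the insulin receptor itself, had an r of 0.39 and FOXO1 one of 0.22.

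The other genes that insulin represses through FOXO factors did not follow IGFBP1 closely. The median r of 15 such genes was 0.09, close to the 0.06 of all clusters. G6PC1, the glucose-6-phosphatase of glucose release, had an r of 0.0023, PDK4 one of -0.00024 and PPARGC1A one of 0.09. PCK1, which encodes the key enzyme of gluconeogenesis, had an r of 0.25. PCK1 measured 14.48, 15.34, 16.30 and 14.85 in the high gain-high intake steers, 16.27, 15.09, 13.95 and 15.80 in the high gain-low intake steers, 15.67, 15.99, 16.07 and 14.15 in the low gain-high intake steers, and 14.98, 13.54, 17.09 and 14.77 in the low gain-low intake steers. Its highest steer and its lowest were both low gain-low intake, the group with the least IGFBP1.

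Among 16 enzymes of gluconeogenesis the median r was 0.04, and among 14 genes of fat synthesis that insulin induces it was -0.08. FASN, the fatty acid synthase, had an r of -0.27, SREBF1 one of -0.06 and GPAM, which starts triglyceride synthesis, one of -0.50. GPAM averaged 10.95 ± 0.77 in high gain-high intake, 11.14 ± 0.44 in high gain-low intake, 11.33 ± 0.80 in low gain-high intake and 12.14 ± 0.62 in low gain-low intake steers (SD, n = 4 each). Its gain effect was -0.69 (standard error 0.30, unadjusted p = 0.0387 and adjusted p = 1 in limma). For 16 genes of fasting and PPARA the median r was -0.03, with CPT1A at -0.16, FGF21 at 0.15 and CYP4A11 at 0.45. For 13 genes of the glucagon and cyclic AMP response it was 0.06, and 14 glucocorticoid-responsive genes had a median of 0.19.

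The most positive list medians were those of immediate early, heat shock and glucocorticoid-responsive genes. Immediate early genes had a median r of 0.31, with 17 of 19 above 0, led by ZFP36 (0.53) and EGR1 (0.52). EGR1, a transcription factor gene, averaged 8.51 ± 0.71 in high gain-high intake, 10.73 ± 1.9 in high gain-low intake, 9.19 ± 1.2 in low gain-high intake and 8.05 ± 0.36 in low gain-low intake steers (SD, n = 4 each), which is the order of the groups in IGFBP1. Its interaction was -3.38 (standard error 1.06, unadjusted p = 0.00592 and adjusted p = 1 in limma). Once group means were removed as well, the r of EGR1 was -0.01 and the median of the immediate early genes was -0.06. FKBP5, a glucocorticoid-induced chaperone gene, averaged 11.27 ± 2.1 in high gain-high intake, 13.05 ± 1.4 in high gain-low intake, 10.31 ± 0.63 in low gain-high intake and 10.21 ± 1.3 in low gain-low intake steers (SD, n = 4 each). Its gain effect was 1.90 (standard error 0.65, unadjusted p = 0.00957 and adjusted p = 1 in limma), its r with IGFBP1 was 0.41, and this r was -0.02 with group means removed.

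All 11 heat shock genes measured had a positive r (median 0.22), but the median was -0.05 in the first 8 arrays and 0.58 in the last 8, and -0.05 with group means removed as well. HSPH1, a chaperone of this list, had a gain effect of 2.0 (standard error 0.93, unadjusted p = 0.0464 and adjusted p = 1 in limma). Among 30 genes of amino acid shortage and the integrated stress response the median r was 0.13, with ATF4 at 0.21, ATF3 at 0.33 and ASNS at -0.05, and STC2 was the 1 gene past 0.6. For 14 chaperones and regulators of protein folding in the endoplasmic reticulum the median was -0.02, but it was -0.54 in the first 8 and 0.46 in the last 8 arrays, and HSP90B1 was at -0.11 over all arrays.

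Of 24 genes of the hypoxia response, 15 had a positive r (median 0.15), where 58.1% of all clusters did. Of the 24, 2 rose with IGFBP1, where 1.88% of all clusters did. PFKFB4, which sets the level of a regulator of glycolysis, had an r of 0.64. PFKFB4 measured 7.03, 6.61, 6.67 and 6.71 in the high gain-high intake steers, 7.15, 7.06, 6.67 and 6.93 in the high gain-low intake steers, 6.66, 7.24, 6.57 and 6.63 in the low gain-high intake steers, and 6.51, 7.06, 6.65 and 6.66 in the low gain-low intake steers. Its r was 0.80 in the first 8 and 0.29 in the last 8 arrays, and 0.49 after quantile normalization. NDRG1, a gene that low oxygen induces in many cells, had an r of 0.61. NDRG1 measured 7.397, 7.12, 7.23 and 7.13 in the high gain-high intake steers, 7.21, 7.49, 7.26 and 7.88 in the high gain-low intake steers, 7.33, 7.78, 7.31 and 7.01 in the low gain-high intake steers, and 6.97, 7.15, 7.11 and 6.80 in the low gain-low intake steers. Each low gain-low intake steer lay below each high gain-low intake steer, and the r of NDRG1 was 0.15 with group means removed as well. It was 0.499 after quantile normalization and 0.562 with array medians subtracted. ADM, which encodes adrenomedullin, had an r of 0.53, VEGFA 0.33, and CA9 and HIF1A were at -0.30 and -0.22.

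**Figure D5:**
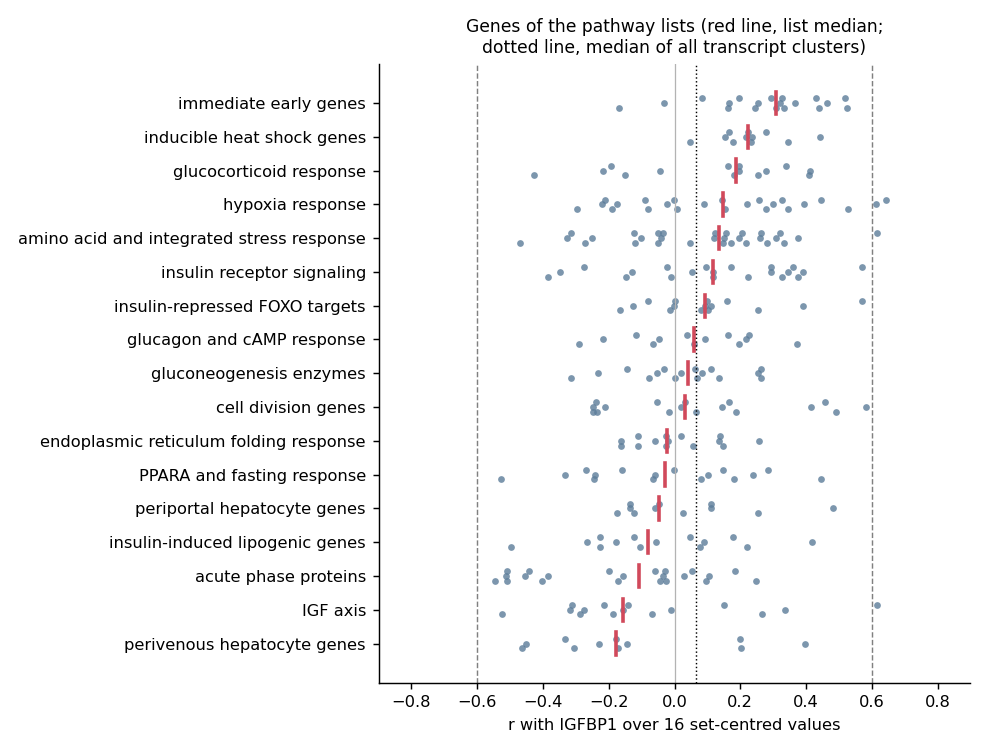
Correlation with IGFBP1 over the 16 set-centred values (horizontal axis) of each measured gene of 17 lists (rows). Points are genes, red lines list medians, dashed lines the limits of -0.6 and 0.6, and the dotted line the median of all transcript clusters, 0.06. The medians run from -0.18 for perivenous hepatocyte genes to 0.31 for immediate early genes.

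The most abundant plasma protein genes lay at the top of the array scale in the first 8 arrays, and their r is not read as a relation of their RNA to that of IGFBP1. ALB, which encodes albumin, measured 21.35, 22.63, 22.65 and 22.68 in the high gain-high intake steers, 20.84, 20.91, 22.48 and 22.65 in the high gain-low intake steers, 21.02, 20.96, 22.59 and 22.20 in the low gain-high intake steers, and 21.22, 21.13, 21.48 and 22.63 in the low gain-low intake steers. In all of the first 8 arrays and in 5 of the last 8, this was the highest value of the whole array, which 22 to 46 clusters shared in each of the first 8 arrays and 1 to 8 in each of the last 8. The highest value of the array itself had an r with IGFBP1 of -0.53 over all arrays, -0.72 in the first 8 and -0.23 in the last 8, and the r of ALB was -0.55, -0.72 and -0.25. GC stood at the highest value in 5 of the first 8 arrays. The fibrinogen genes FGA, FGB and FGG and TF, the iron carrier transferrin, were within 0.0549 of it in all of the first 8, with an r of -0.51, -0.51, -0.51 and -0.46. After quantile normalization TF was at 0.02, FGA at -0.12, FGG at -0.19 and FGB at -0.49. Of the 176 falling clusters, 2 lay within 0.1 of the highest value in all of the first 8 arrays, and no gene named by r or slope did. Acute phase genes below the top included A2M at -0.44, CP at -0.40, SAA3 at -0.17, HP at -0.04 and LBP at 0.03. The median of all 22 genes of this list was -0.11, and that of the 17 genes left without those within 0.1 of the top was -0.03. Genes of liver zonation had medians of -0.18 for 11 perivenous and -0.05 for 11 periportal genes, and 17 cell division genes had a median of 0.03.

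Markers of 10 cell types were read for the makeup of the samples. Hepatocyte markers were high in every liver, with a mean over 11 genes of 18.52 to 19.33, as liver tissue has. This mean was 18.52 to 19.32 in high gain-high intake, 18.76 to 19.33 in high gain-low intake, 18.77 to 19.18 in low gain-high intake and 19.04 to 19.21 in low gain-low intake steers, and 1 of the 11 had a positive r with IGFBP1. A total of 4 of them lay within 0.1 of the highest value in all of the first 8 arrays, and of the other 7, 1 had a positive r (median -0.16). None of 11 stellate cell and fibroblast markers had a positive r (median -0.22), and their mean had an r of -0.68. That mean was 8.79 to 9.24 in high gain-high intake, 8.96 to 9.28 in high gain-low intake, 8.88 to 9.32 in low gain-high intake and 9.15 to 9.53 in low gain-low intake steers, which overlap. For Kupffer cells 2 of 11 markers had a positive r (median -0.23), for endothelial cells 5 of 10 (-0.01), for cholangiocytes 3 of 9 (-0.13), for T and NK cells 3 of 12 (-0.06), for B and plasma cells 6 of 7 (0.21), for neutrophils 6 of 8 (0.11), for smooth muscle 4 of 6 (0.22) and for red blood cells 4 of 7 (0.08). Among all clusters 58.1% had a positive r. Of the markers of all 10 types, only the cholangiocyte marker SCTR (-0.61) and the red cell marker AHSP (0.63) passed the limits. Over all clusters 1.88% rose and 0.657% fell. The part of cell makeup in the levels of IGFBP1 and its partners was not tested.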

How the data were processed

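Values for 26773 transcript clusters in 16 livers were used as deposited. Per the study's methods, the authors normalized the scanner files by GC count and Signal Space Transformation and summarised them by RMA in Affymetrix Expression Console, which gives log2 values. The submitters' processing notes also name Transcriptome Analysis Console. For neither program is a version given in the sources used here, nor is a genome build. The array annotation gave 18790 clusters 1 symbol, 385 several and 7598 none. A total of 7 list genes were found through RefSeq synonyms.

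The members and gene lists were chosen with earlier results of these data known. Group contrasts were fitted over all clusters with limma 3.58.1 in R 4.3.3 (1 mean per group, Benjamini-Hochberg adjustment), and checked on simulated data. Set-centred Pearson correlations with IGFBP1 were computed in Python 3.11.15 with numpy 2.4.6. Named genes are the 15 symbols with the most positive and most negative r, the 8 with the steepest slopes among clusters past 0.6 in size, list genes past 0.6, and well-known list members. For a listed symbol with several clusters, the cluster of highest mean was used. For a symbol named by r, it was the cluster with the most extreme r. Genes in the text outside this rule were chosen after their values were seen. Alternatives were quantile normalization, subtraction of array medians, the array set as a block, removal of group means, Spearman's rho, omission of dim clusters, and omission of each steer. The 4 arrays per group limit the precision. Promoter and protein sequences were not used here.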

Additional observations from a re-analysis of the deposited data

Results flagged for a closer look

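The gain difference of IGFBP1 ran in opposite directions at the 2 intakes. At low intake it was 3.64, with all 4 high gain-low intake steers above the low gain-low intake mean, and at high intake it was -0.91, with all 4 high gain-high intake steers below the low gain-high intake mean. Likewise the intake difference was -2.01 at high gain and 2.54 at low gain. The difference between these was not tested, because IGFBP1 was chosen with its values known.

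In 5 of 68 groups of 4 steers, over 17 genes, 1 steer stood apart from the other 3. Independent values of like spread would give this in about 1 of 20 groups. That rate need not hold here, because each group is split between the array sets and genes were chosen in part by their values. DIO1 was 16.22 in low gain-low intake steer 20133181 and 15.26 to 15.39 in the others of its group. STC2 was 6.48 in high gain-high intake steer 20133412, against 7.05 to 7.12. PFKFB4 was 7.24 in low gain-high intake steer 20133173, against 6.57 to 6.66. IGF1 was 14.18 in high gain-low intake steer 20133697, against 16.51 to 16.66. ALB was 21.35 in high gain-high intake steer 20133015, against 22.63 to 22.68, and this is the only steer of its group in the first 8 arrays, where ALB was at most 21.48 in all steers and was the highest value of each array.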

How the results depend on the processing

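The gain effect of IGFBP1 was 1.05 to 1.75 without each steer in turn, the intake effect -0.12 to 0.58, with the sign turned without high gain-low intake steer 20133337 alone, and the interaction -5.32 to -3.92. With quantile normalization, array medians subtracted or the array set as a block, all 3 kept their sign, at 1.29, 1.41 and 1.58, at 0.41, 0.30 and 0.48, and at -4.62, -4.50 and -4.55. Rising clusters numbered 502 as deposited, 300 after quantile normalization, 331 with array medians subtracted and 256 with no array set means removed. Falling clusters numbered 176 as deposited, and 314, 298 and 77 in the other 3 settings. With group means removed as well, 686 rose and 434 fell. With dim clusters left out, which kept 13387 clusters, 127 rose. Without each steer in turn 517 to 707 rose and 181 to 287 fell. The limit of 0.6 stayed the same with fewer steers or more means removed, so higher counts there need not mean closer relations. The falling count grew by over 1.5 times without high gain-low intake steer 20133045 (267), low gain-high intake steer 20133173 (283) or low gain-low intake steer 20133403 (287). No group comparison gave a call at an adjusted p below 0.05 in limma. The same held for all 84 counts under alternatives, each of 1 comparison in 1 setting, including the ordinary statistics of the study's one-way model. At an unadjusted p of 0.05 or less there were 624 clusters in limma's F and 729 in the ordinary F. Of the named genes by r or slope, none changed the sign of r in the alternatives run, but 10 of 22 rising and 14 of 22 falling ones went under 0.6 in size with group means removed as well. The median r of the glucocorticoid list turned to -0.0112 with group means removed and -0.124 in the first 8 arrays, that of the heat shock list to -0.0486 and -0.0505 in the same settings, that of immediate early genes to -0.0561 and that of smooth muscle markers to -0.194 with group means removed. Of all 17 gene lists, including those with medians near 0, 8 changed the sign of their median in the first 8 arrays, 4 in the last 8 and 7 with group means removed. In the first 8 arrays these included insulin receptor signaling (-0.0148), FOXO targets (-0.0463), the glucagon and cyclic AMP response (-0.134), the integrated stress response (-0.0718) and hypoxia (-0.0465). Alternatives for gene lists, for levels and for the choice of genes in 1 array set were added after seeing the data. The causes were not tested. Steers could not be paired by harvest day, because the day of each steer is not given in the sources used here. Precision is limited by 4 steers per group.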
